A study of Paxillus involutus with 25 samples.

Results

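A group of 74 genes of the fungus Paxillus involutus was high on potassium-depleted medium, low on complete agar, and in between when flakes of K-vermiculite lay on the depleted medium. They were chosen from 18032 genes by mean CPM, the count of a gene divided by the total of its library, times 1000000. A gene entered when its mean on K-depleted agar was at least 10 CPM and at least 3 times its mean on complete agar, with 0.5 CPM added to both, and when its mean with K-vermiculite lay at least 0.25 but less than 0.75 of the way across the gap between the media. The share of the gap, called the position here, is measured on log2(mean CPM + 0.5), with the K-depleted mean at 0 and the complete-agar mean at 1. In all, 133 genes met the conditions on level and fold. Of these, 74 were partly reset and are described here, 34 lay at a position of 0.75 or above with K-vermiculite, and 25 lay below 0.25.

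RNA was sequenced from mycelium of strain ATCC 200175, grown for 21 days at 25 °C in the dark from agar plugs of 5 mm on cellophane-covered agar. There were 5 conditions of 5 biological replicate cultures each: K-depleted MMN agar with K-vermiculite, with phlogopite or with muscovite, K-depleted MMN agar alone, and complete MMN agar. All but the complete agar lacked KH2PO4, which carries phosphate as well as potassium. In comparisons with complete agar, the loss of its potassium cannot be told apart from the loss of its phosphate. The conditions with a mineral and K-depleted agar alone lacked this salt alike. The fungus grew alone on the plates, without a host root, and the 3 minerals were supplied as flakes placed among the inoculation points.

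Paxillus involutus forms ectomycorrhiza, a sheath around tree roots through which minerals taken up by the hyphae reach the tree. Muscovite, phlogopite and K-vermiculite are sheet silicates that hold potassium ions between their layers, and fungal hyphae can draw on such minerals by secreting protons and organic acids. In well-studied fungi, shortage of potassium or phosphate raises genes for uptake of the missing ion, such as the phosphate transporter genes of the PHO pathway in baker's yeast. The IDs of the 74 members carry no product names in the files or in the reference gene table, so no role is given to any of them below.

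The K-depleted, complete and K-vermiculite values chose the members, so levels in those 3 conditions are a description and carry no test. Phlogopite and muscovite libraries played no part in the choice, so the comparison between those 2 minerals is the one tested here. Counts of calls against K-depleted agar are given as a description, since the rule asked for high K-depleted values and so favours lower values in whatever is set against them. Library totals ran from 21.0 to 41.2 M counts (M, 1000000), and all 74 members passed the filter on low counts. The p-values below measure the spread between cultures that the labels call biological replicates. Near the edges of the rule, PAXINDRAFT_173207 (0.254) and PAXINDRAFT_103396 (0.299) had the lowest positions inside, while PAXINDRAFT_103953 (0.243) and PAXINDRAFT_100134 (0.221) lay just outside. At the upper edge, PAXINDRAFT_56670 (0.748) and PAXINDRAFT_96838 (0.743) lay inside, and PAXINDRAFT_81425 (0.751) and PAXINDRAFT_91598 (0.762) outside. The lowest K-depleted mean inside was 10.02 CPM for PAXINDRAFT_17535, and PAXINDRAFT_84704 missed the limit at 9.81 CPM. The smallest fold inside was 3.01 for PAXINDRAFT_118717, against 2.995 for PAXINDRAFT_102766 outside.

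The members held a sizeable share of the RNA. Together they took 1.26% ± 0.104 of the counts of a library with K-vermiculite, 3.03% ± 0.234 with phlogopite, 2.61% ± 0.257 with muscovite, 3.11% ± 0.237 on K-depleted agar and 0.598% ± 0.0146 on complete agar (SD, n = 5 each). Library by library the share was 1.15% to 1.41% with K-vermiculite, 2.68% to 3.32% with phlogopite, 2.31% to 2.94% with muscovite, 2.83% to 3.44% on K-depleted agar and 0.575% to 0.615% on complete agar. The K-vermiculite range touched neither that of K-depleted nor that of complete agar, while the phlogopite and muscovite ranges overlapped that of K-depleted agar. The 3 members with the highest mean CPM made up 46.4% of the member total on K-depleted agar. RNA came from whole mycelium, so fewer hyphal cells expressing a gene and less of its RNA per cell cannot be told apart.

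Levels within the group were spread widely. The median member averaged 53.7 CPM with K-vermiculite, 130 CPM with phlogopite, 104 CPM with muscovite, 120 CPM on K-depleted agar and 24.8 CPM on complete agar. K-depleted means ran from 10.02 to 5160 CPM, with 18 members below 30 CPM. The fold of K-depleted over complete agar had a median of 3.98 and reached 42.9. It was below 4 in 38 members and at least 10 in 8. Positions with K-vermiculite had a median of 0.553 and leaned towards the upper part of the allowed range, with 20 members from 0.65 up and 10 below 0.35.

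**Figure D1:**
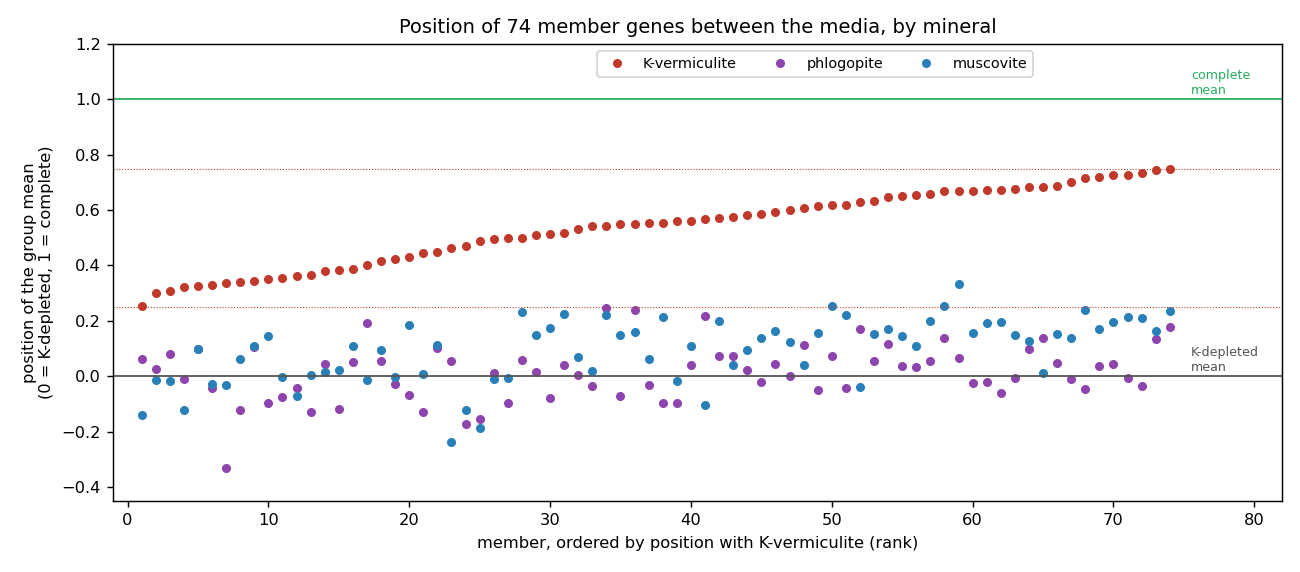
Position of each of the 74 members between the K-depleted mean (0) and the complete-agar mean (1), for the group means with K-vermiculite, phlogopite and muscovite, ordered by the K-vermiculite position. Dotted lines mark the limits of the rule at 0.25 and 0.75, and the phlogopite and muscovite points lie near 0, with medians of 0.0238 and 0.117.

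The ordering of the 5 conditions was simple at both ends. Complete agar had the lowest mean and K-vermiculite the next lowest in all 74 members. The rule fixes the order of K-vermiculite and the 2 media, and leaves the places of phlogopite and muscovite free. The order K-depleted, phlogopite, muscovite, K-vermiculite, complete from high to low was the most common, in 28 members, and the same order with phlogopite above K-depleted agar held in 22. The muscovite mean was below the phlogopite mean in 57 members and below the K-depleted mean in 56, counts over means that take no account of the replicate spread. Every K-vermiculite value lay below every K-depleted value in 69 members, against 14.9% of the 12744 tested genes, and above every complete-agar value in 64, against 14.4%; 62 members were clear on both sides. Every complete-agar value lay below every K-depleted value in 74 members, against 19.3%. The rule used these values, so nothing is read from the counts.

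With phlogopite and with muscovite the members were far above complete agar. Every phlogopite value exceeded every complete-agar value in 74 of 74 members, against 18.6% of tested genes, and every muscovite value did so in 74 of 74, against 17.6%. The complete-agar values had been chosen as low, which bears on both counts. K-vermiculite values lay below every phlogopite value in 67 members (14.7% of tested genes) and below every muscovite value in 69 (11.4%), again with the K-vermiculite values chosen by the rule.

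Per kilobase of gene span, introns included, 4 members stood above the others on K-depleted agar. They were PAXINDRAFT_103396 at 5944 CPM per kb, PAXINDRAFT_11343 at 5760, PAXINDRAFT_13743 at 2026 and PAXINDRAFT_165289 at 1420, and the next, PAXINDRAFT_165850, had 606 CPM per kb. The median span of the members was 1.49 kb, against 1.41 kb over tested genes.

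PAXINDRAFT_103396 had the widest fold of the 74 members. Its levels were 2029, 1440, 2239, 1707 and 963 CPM with K-vermiculite, 4618, 4698, 6096, 4316 and 3636 CPM with phlogopite, 4760, 5174, 5569, 5286 and 6202 CPM with muscovite, 5072, 4295, 5313, 5855 and 5264 CPM on K-depleted agar, and 96.6, 101, 150, 167 and 84.4 CPM on complete agar. The cultures with K-vermiculite formed a group of their own, above all complete-agar cultures and below all others. Phlogopite and muscovite values overlapped those of K-depleted agar, and the log2 fold change of phlogopite over muscovite was -0.20 (SE 0.20, edgeR adjusted p = 0.617). Although 3.08 times lower with K-vermiculite than on K-depleted agar, the gene was still 13.9 times higher than on complete agar, which put its position at only 0.299.

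PAXINDRAFT_165289 lay near the other end of the range, at a position of 0.73. It had 1791, 1833, 2036, 2053 and 2116 CPM with K-vermiculite, 4681, 4898, 4853, 5867 and 4697 CPM with phlogopite, 3082, 3408, 4006, 4103 and 3956 CPM with muscovite, 4757, 4552, 4921, 5337 and 4366 CPM on K-depleted agar, and 1405, 1495, 1315, 1396 and 1512 CPM on complete agar. Here the 5 cultures with K-vermiculite were close together, and all muscovite cultures lay below all phlogopite and all K-depleted cultures.

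PAXINDRAFT_11343 averaged 2152 ± 161 CPM with K-vermiculite, 4131 ± 1004 CPM with phlogopite, 3198 ± 329 CPM with muscovite, 4510 ± 634 CPM on K-depleted agar and 1030 ± 197 CPM on complete agar (SD, n = 5 each). It sat at the middle of the gap with K-vermiculite (0.50). Its muscovite values, 2923 to 3748 CPM, reached into the K-depleted range of 3624 to 5354 CPM.

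PAXINDRAFT_13743 averaged 722 ± 79.0 CPM with K-vermiculite, 2205 ± 334 CPM with phlogopite, 1489 ± 404 CPM with muscovite, 1939 ± 214 CPM on K-depleted agar and 322 ± 21.8 CPM on complete agar (SD, n = 5 each). PAXINDRAFT_173186 had a like profile at a lower count, with 218 ± 25.5, 825 ± 39.3, 585 ± 156, 789 ± 67.7 and 116 ± 11.8 CPM in the same order of conditions. In both, the muscovite cultures were the most scattered, from 1037 to 2101 CPM and from 414 to 784 CPM.

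The 3 further members among the 8 with the highest K-depleted mean differed in where K-vermiculite placed them between the media. PAXINDRAFT_169510 averaged 364 ± 52.4 CPM with K-vermiculite, 1179 ± 113 CPM on K-depleted agar and 214 ± 19.8 CPM on complete agar (SD, n = 5), a position of 0.69. PAXINDRAFT_171401 averaged 339 ± 71.3 CPM with K-vermiculite, 911 ± 47.2 CPM on K-depleted agar and 163 ± 9.83 CPM on complete agar, a position of 0.57. PAXINDRAFT_80532 averaged 529 ± 28.8 CPM with K-vermiculite, 824 ± 127 CPM on K-depleted agar and 236 ± 33.5 CPM on complete agar, a position of 0.36. In each of the 3 the K-vermiculite cultures overlapped neither medium.

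**Figure D2:**
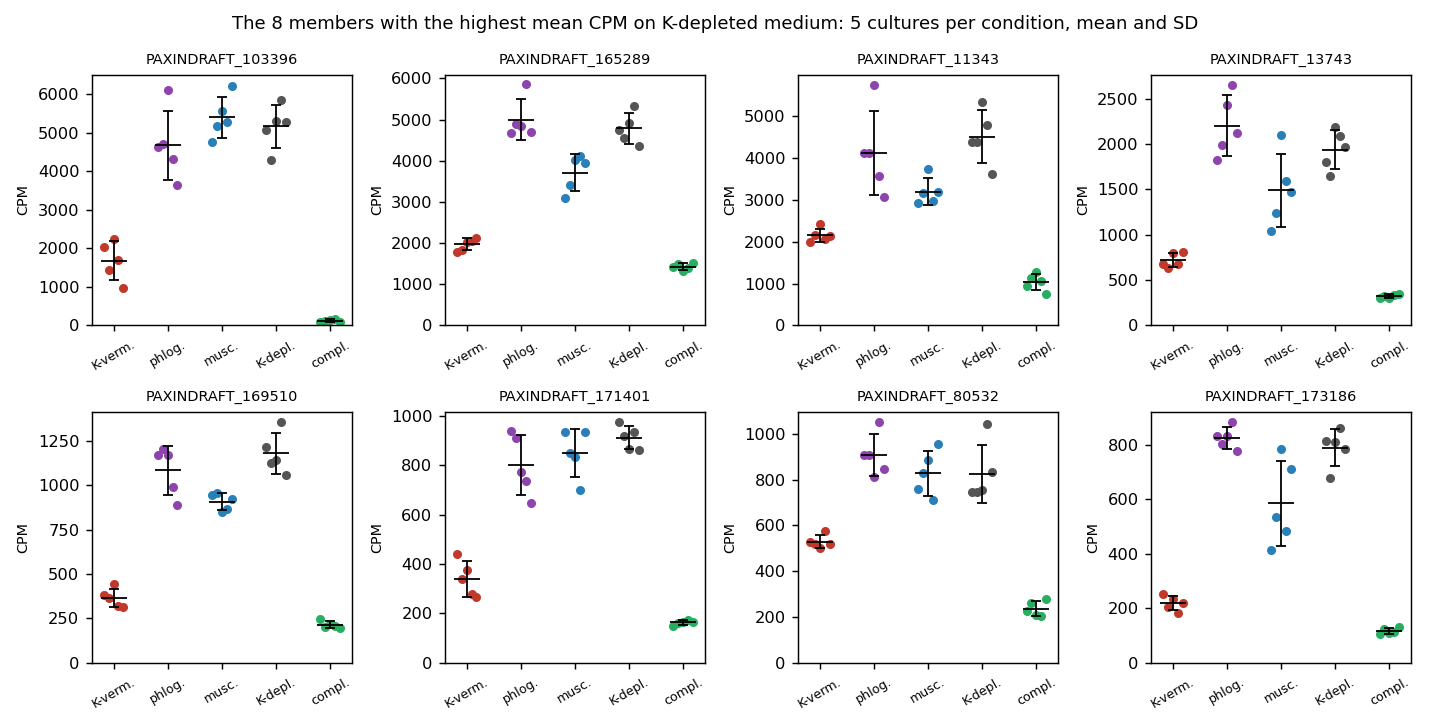
CPM of the 8 members with the highest K-depleted mean in each of 5 cultures per condition (points), with mean and SD (bars). K-vermiculite values lie between those of the 2 media in all 8 genes, at 963 to 2239 CPM for PAXINDRAFT_103396 and 1791 to 2116 CPM for PAXINDRAFT_165289.

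Members with less RNA also had wide folds. PAXINDRAFT_12839 had 11.4, 8.53, 13.6, 9.07 and 7.38 CPM with K-vermiculite, 62.6, 45.4, 65.7, 119 and 77.3 CPM on K-depleted agar, and 2.02, 1.57, 1.38, 1.47 and 2.39 CPM on complete agar, a 33.0-fold difference between the media. No values overlapped between these 3 conditions. K-vermiculite cultures were 7.11 times below K-depleted agar and 4.64 times above complete agar.

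PAXINDRAFT_173207, the member closest to the lower edge, had 36.9, 23.2, 48.3, 21.7 and 15.5 CPM with K-vermiculite, 72.3, 62.7, 63.6, 34.5 and 39.1 CPM with phlogopite, 146, 139, 44.9, 85.1 and 110 CPM with muscovite, 69.7, 72.4, 71.6, 52.2 and 68.0 CPM on K-depleted agar, and 2.15, 1.52, 1.85, 2.12 and 3.13 CPM on complete agar. Its muscovite cultures ranged over more than the whole K-depleted spread, 4 of 5 of them above every K-depleted culture. The log2 fold change of phlogopite over muscovite, -0.94, was the lowest of any member but carried an SE of 0.30 (edgeR adjusted p = 0.0822).

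PAXINDRAFT_22127 averaged 111 ± 26.2 CPM with K-vermiculite, 313 ± 72.7 CPM on K-depleted agar and 19.8 ± 9.54 CPM on complete agar (SD, n = 5), and PAXINDRAFT_170306 averaged 170 ± 21.4, 784 ± 92.2 and 69.6 ± 9.53 CPM. In neither did the values of these conditions overlap. PAXINDRAFT_67249 was at 36.2 ± 10.3 CPM with K-vermiculite, 103 ± 28.7 CPM on K-depleted agar and 4.46 ± 0.946 CPM on complete agar, and stayed 7.40 times above complete agar at a position of 0.34.

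Nearest the upper edge were PAXINDRAFT_56670 and PAXINDRAFT_96838, with scattered K-vermiculite values. Not every member near it was so: PAXINDRAFT_165289, at 0.73, had 1791 to 2116 CPM with K-vermiculite. PAXINDRAFT_56670 had 48.3, 32.9, 44.5, 17.9 and 10.7 CPM with K-vermiculite, 195, 265, 275, 319 and 112 CPM on K-depleted agar, and 13.6, 16.8, 5.56, 8.52 and 32.7 CPM on complete agar. Its K-vermiculite and complete-agar cultures overlapped, so the in-between position of this gene is one of the means and not of each culture. PAXINDRAFT_96838 had 34.6, 18.2, 33.3, 17.9 and 10.4 CPM with K-vermiculite, 230, 141, 286, 244 and 253 CPM on K-depleted agar, and 10.8, 12.6, 7.18, 8.02 and 12.0 CPM on complete agar, with overlap again between K-vermiculite and complete agar.

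In each K-vermiculite culture on its own, the members as a group lay between the media. The median position over the 74 members was 0.487, 0.583, 0.473, 0.611 and 0.646 in K-vermiculite cultures 1 to 5, with quartiles from 0.371 to 0.583 in culture 1 and from 0.492 to 0.721 in culture 5. By comparison the cultures on K-depleted agar lay at -0.0465 to 0.0594 and those on complete agar at 0.957 to 1.03. The cultures with K-vermiculite differed in the same way across many genes. Culture 1 had the highest of the 5 values in 33 members and culture 3 in 32, whereas culture 5 had the lowest in 37 and culture 4 in 18. Library totals were 31.2, 26.1, 31.0, 30.7 and 41.2 M counts in cultures 1 to 5, and the part of depth in that order was not tested.

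Replicate spread was wider in the members than in genes at large, in every condition. The median SD of log2(CPM + 0.5) over 5 cultures was 0.173 for members with K-vermiculite, against 0.0965 for the 8845 tested genes whose mean over all cultures reached 10 CPM. The members were not held to that limit, and their complete-agar means went down to 1.23 CPM. The part of level in the difference was not tested. The pairs of values were 0.167 and 0.123 with phlogopite, 0.218 and 0.120 with muscovite, 0.163 and 0.118 on K-depleted agar and 0.175 and 0.106 on complete agar. PAXINDRAFT_56670 had the widest spread among members with K-vermiculite, on K-depleted and on complete agar. At the steady end, PAXINDRAFT_177922 had 119, 136, 131, 131 and 129 CPM with K-vermiculite, against 57.3, 61.3, 67.8, 56.8 and 61.8 CPM on complete agar.

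**Figure D3:**
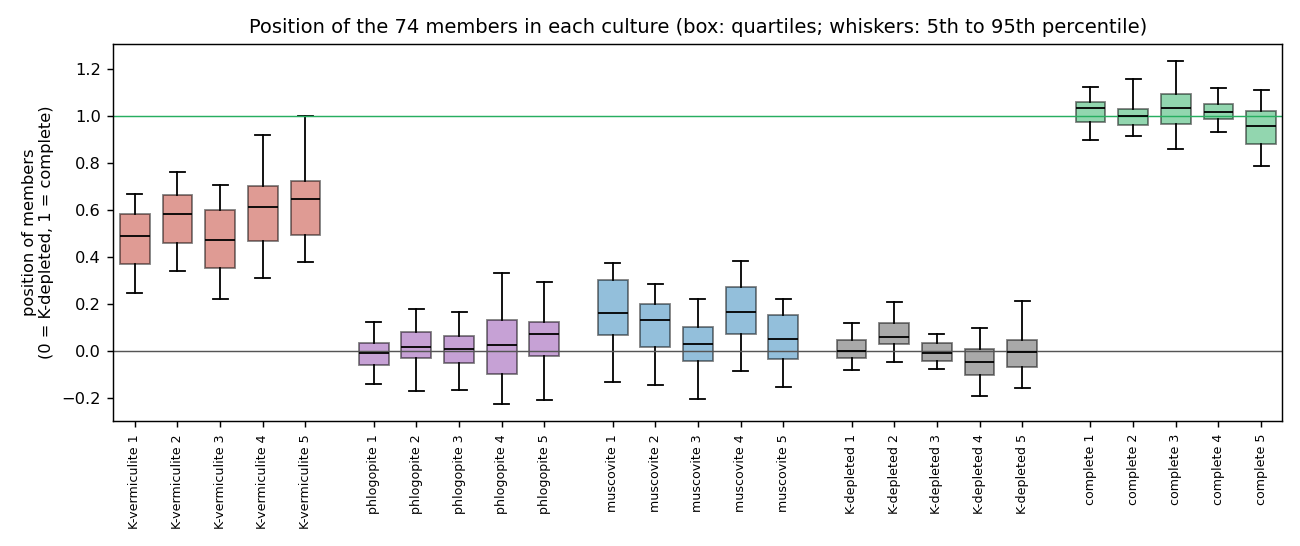
Positions of the 74 members in each of the 25 cultures (box, quartiles with the median; whiskers, 5th to 95th percentile), where 0 is the K-depleted and 1 the complete-agar mean. Medians of the K-vermiculite cultures lie at 0.473 to 0.646, those of phlogopite at -0.00606 to 0.0749 and those of muscovite at 0.0305 to 0.165.

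The phlogopite and muscovite libraries, compared next, took no part in choosing the members. The spread behind the p-values was estimated over all 25 libraries, among them those that did choose. With phlogopite, 18 of 74 members were higher than with muscovite and 2 were lower (edgeR quasi-likelihood test over all 12744 genes, adjusted p below 0.05). The 20 calls compare with 4.15% of tested genes called, and the 18 higher members, 24.3%, with 1.94% of tested genes called higher and 2.21% called lower. The median log2 fold change of the members was 0.21, against 0.000370 over tested genes, and it was above 0 in 57 of 74. Every muscovite value lay below every phlogopite value in 11 members, or 14.9%, against 2.12% of tested genes, and the reverse held in 2 members, against 2.83%. DESeq2 called 22 members as higher and 3 as lower, and limma-voom 19 and 1. The count rested on single libraries: it was 11, 12 and 33 without muscovite cultures 1, 2 and 3, and 10 without phlogopite culture 4, and the 10 libraries of the 2 minerals fitted alone gave 10 calls.

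Of the members named for this contrast, PAXINDRAFT_100832 had the lowest adjusted p. It had 230, 245, 205, 254 and 216 CPM with phlogopite and 130, 155, 184, 129 and 175 CPM with muscovite. The groups did not overlap, and phlogopite was higher by 0.58 on the log2 scale (SE 0.09, edgeR adjusted p = 0.000736). K-depleted values, 247 to 287 CPM, lay mostly above those with phlogopite, K-vermiculite gave 62.6 to 76.9 CPM and complete agar 26.0 to 33.4 CPM.

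PAXINDRAFT_168738 had 207, 198, 218, 217 and 190 CPM with phlogopite and 110, 125, 178, 133 and 152 CPM with muscovite. All phlogopite cultures were higher (log2 fold change 0.57 and SE 0.10 with edgeR adjusted p = 0.00132). With K-vermiculite the gene was at 69.0 to 82.6 CPM, on K-depleted agar at 164 to 211 CPM and on complete agar at 45.3 to 57.3 CPM.

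PAXINDRAFT_96892 had 148, 135, 151, 163 and 151 CPM with phlogopite and 84.5, 99.1, 119, 106 and 108 CPM with muscovite, again without overlap (log2 fold change 0.54 and SE 0.10 with edgeR adjusted p = 0.00465). PAXINDRAFT_99821, one of the members with the fewest counts, had 16.0, 15.1, 12.8, 18.3 and 15.5 CPM with phlogopite and 6.86, 8.23, 11.2, 7.52 and 10.2 CPM with muscovite. Its difference was the largest of the 20 called, with a log2 fold change of 0.83 (SE 0.16 with edgeR adjusted p = 0.00479). The calls of these 4 genes held under each of the 18 alternatives run for the contrast.

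Of the 8 members with the highest K-depleted mean, 3 were called as higher with phlogopite than with muscovite, and the most abundant, PAXINDRAFT_103396, had a log2 fold change of -0.20 that did not pass. PAXINDRAFT_165289, whose values stand above, was higher with phlogopite than with muscovite by 0.44 on the log2 scale (SE 0.09, edgeR adjusted p = 0.00786). The log2 fold change was 0.58 for PAXINDRAFT_13743 (SE 0.13, edgeR adjusted p = 0.0141) and 0.51 for PAXINDRAFT_173186 (SE 0.12, edgeR adjusted p = 0.0175), calls that were lost under 3 and 4 of the 18 alternatives. For both, these included leaving out muscovite culture 2 or phlogopite culture 4. PAXINDRAFT_67249 had 130, 134, 102, 205 and 179 CPM with phlogopite and 60.8, 88.4, 115, 65.5 and 99.2 CPM with muscovite (log2 fold change 0.82 and SE 0.23 with edgeR adjusted p = 0.0488), and its call was lost under 11 alternatives.

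Only 2 members were lower with phlogopite than with muscovite. PAXINDRAFT_12162 had 23.7, 25.6, 21.9, 17.7 and 19.1 CPM with phlogopite and 31.8, 29.6, 26.1, 26.2 and 30.4 CPM with muscovite (log2 fold change -0.41 and SE 0.11 with edgeR adjusted p = 0.0353). PAXINDRAFT_118717 had 260, 247, 255, 208 and 267 CPM with phlogopite and 317, 320, 314, 289 and 319 CPM with muscovite (log2 fold change -0.33 and SE 0.09 with edgeR adjusted p = 0.0472). Neither pair of groups overlapped, but the calls were lost under 7 and 10 of the 18 alternatives, among them the removal of phlogopite culture 3, 4 or 5 and of muscovite culture 1, 2 or 5.

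**Figure D4:**
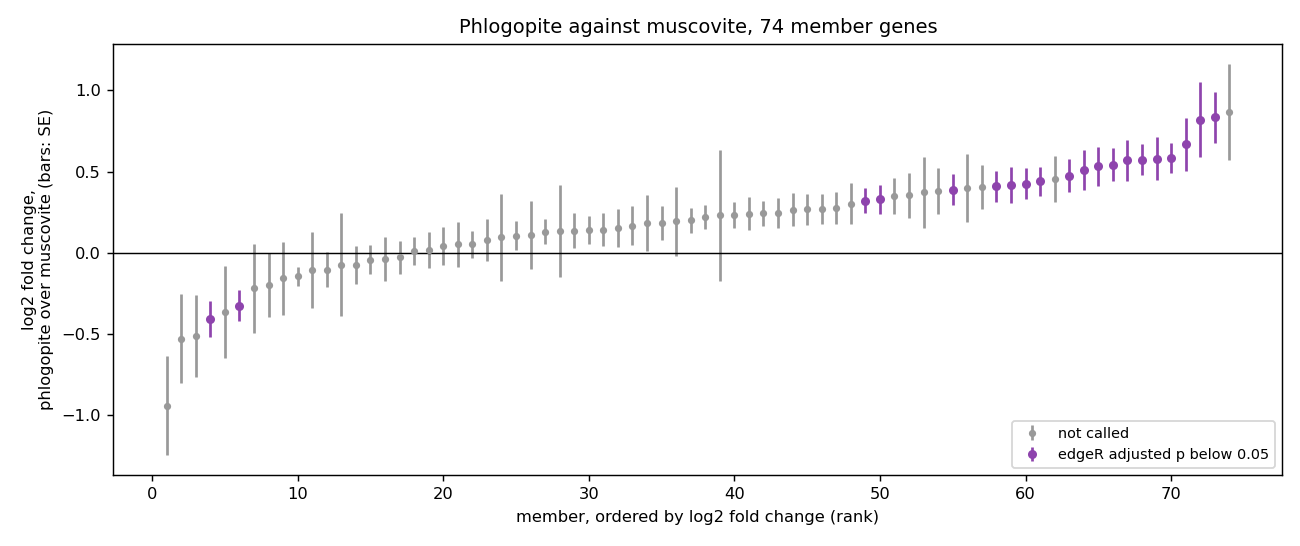
Log2 fold change of phlogopite over muscovite with its SE (bars) for the 74 members, ordered by size; coloured points passed an edgeR adjusted p of 0.05. Of the 20 called members, 18 lie above 0 and 2 below.

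Muscovite was also set against K-depleted agar, whose libraries chose the members for high values, so nothing is read from the counts that follow. In the edgeR fit 16 of 74 members were called as lower with muscovite and 0 as higher, beside 1.86% and 1.50% of all tested genes, which no such rule chose, and 3.36% called either way. At an unadjusted p below 0.05 there were 39 in either direction, with no share of all tested genes given at that threshold. Neither DESeq2 (22 lower) nor limma-voom (14 lower) called any as higher. Every muscovite value lay below every K-depleted value in 9 members, beside 2.64% of tested genes. The median log2 fold change was -0.25, and the median position with muscovite was 0.117, with a range over members of -0.238 to 0.332. The count was 7, 8 and 8 without muscovite cultures 1, 2 and 4, and 9, 8 and 8 without K-depleted cultures 1, 3 and 4. With the libraries of the 2 groups alone it was 6.

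PAXINDRAFT_100832 had 130, 155, 184, 129 and 175 CPM with muscovite and 283, 247, 273, 287 and 264 CPM on K-depleted agar. The log2 fold change was -0.79 (SE 0.09). PAXINDRAFT_99821 had 6.86, 8.23, 11.2, 7.52 and 10.2 CPM with muscovite and 17.1, 14.9, 15.3, 27.7 and 14.4 CPM on K-depleted agar (log2 fold change -1.01, SE 0.16). K-depleted culture 4 stood far above the other 4 K-depleted cultures; with that culture left out, the value was -0.79. In both genes all muscovite cultures were below all K-depleted cultures, and the position of PAXINDRAFT_99821 with muscovite, 0.33, was the highest of any member.

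PAXINDRAFT_165850 had 347, 378, 477, 332 and 434 CPM with muscovite and 613, 501, 532, 546 and 559 CPM on K-depleted agar, without overlap (log2 fold change -0.47, SE 0.08). PAXINDRAFT_111138 had 26.0, 32.9, 33.1, 26.7 and 29.2 CPM with muscovite and 47.6, 43.5, 48.0, 46.5 and 45.7 CPM on K-depleted agar, also without overlap (log2 fold change -0.63, SE 0.11). PAXINDRAFT_17535, the member nearest the limit on level, had 7.95, 6.95, 7.65, 7.45 and 8.21 CPM with muscovite and 10.998, 9.50, 9.43, 10.5 and 9.63 CPM on K-depleted agar (log2 fold change -0.37, SE 0.09). With K-vermiculite, PAXINDRAFT_165850 averaged 227 CPM, PAXINDRAFT_111138 averaged 12.8 CPM and PAXINDRAFT_17535 had 4.71 to 5.94 CPM.

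Among more abundant members, the log2 fold change of muscovite over K-depleted agar was -0.35 for PAXINDRAFT_165289 (SE 0.09) and -0.51 for PAXINDRAFT_170306 (SE 0.14). PAXINDRAFT_169510 averaged 907 ± 49.0 CPM with muscovite and 1179 ± 113 CPM on K-depleted agar (SD, n = 5). PAXINDRAFT_103396 went the other way, with a log2 fold change of 0.08 (SE 0.20).

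**Figure D5:**
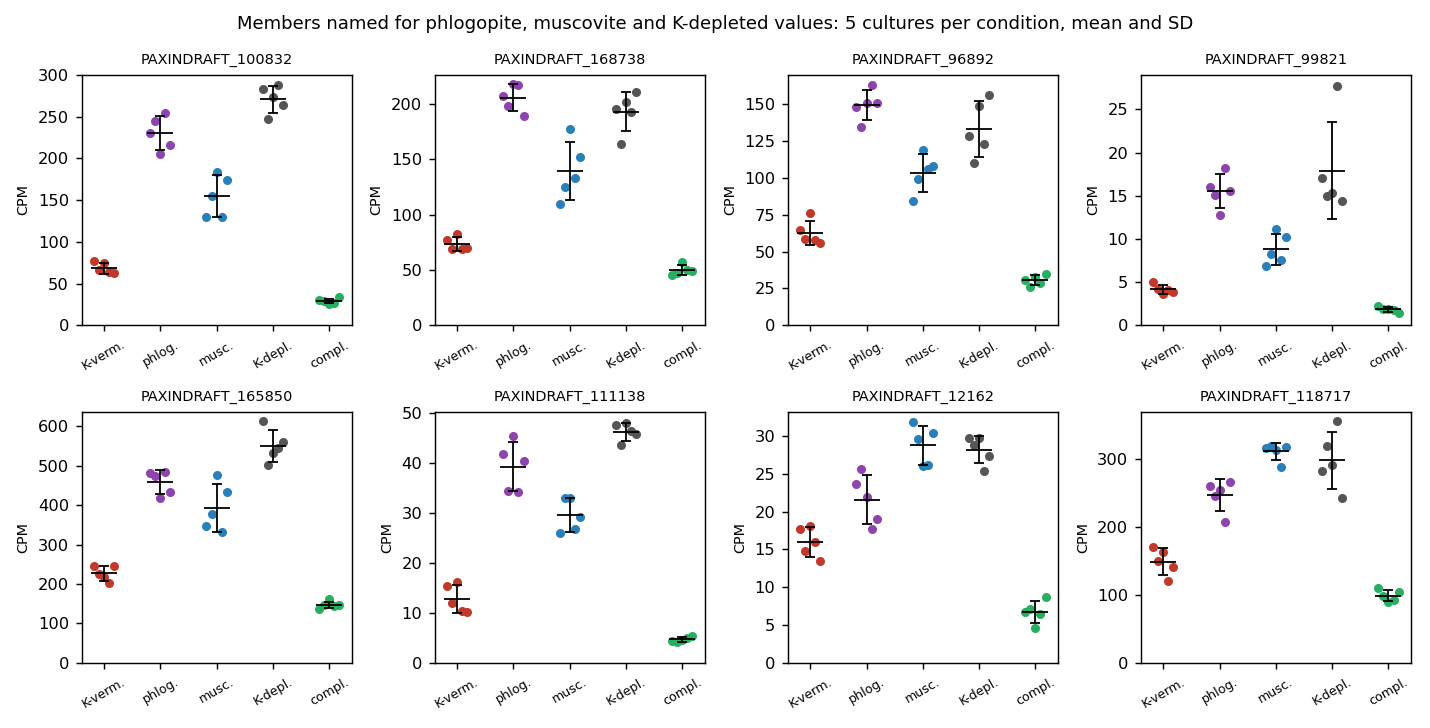
CPM of 8 members named for their phlogopite, muscovite and K-depleted values, in 5 cultures per condition (points) with mean and SD (bars). PAXINDRAFT_100832 runs from 205 to 254 CPM with phlogopite and from 129 to 184 CPM with muscovite, while PAXINDRAFT_12162 and PAXINDRAFT_118717 are lower with phlogopite.

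Muscovite cultures differed among themselves in the members. Their median positions were 0.161, 0.132, 0.0305, 0.165 and 0.0531 in cultures 1 to 5, so that cultures 3 and 5 lay within the K-depleted range of -0.0465 to 0.0594 and the other 3 above it. Culture 3 had the highest value of the group in 41 members, and culture 1 the lowest in 34. Phlogopite cultures lay at -0.00606, 0.0167, 0.00817, 0.0270 and 0.0749, of which culture 5 alone exceeded every K-depleted culture.

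Phlogopite against K-depleted agar again uses the K-depleted libraries that chose the members, and nothing is read from its counts. EdgeR gave 0 calls among the members at an adjusted p below 0.05, beside 5.15% of all tested genes called at that threshold. At an unadjusted p below 0.05 there were 14 members, with no share of all tested genes given. DESeq2 called 3 members and limma-voom 2. Every phlogopite value lay below every K-depleted value in 1 member, beside 2.79% of tested genes. Removal of K-depleted culture 5 brought the edgeR count to 6, and removal of phlogopite culture 1 or 2 to 3. The median log2 fold change of the members was -0.02, above 0 in 35 and below 0 in 39, and the median position was 0.0238. Single members still lay well apart in their means: PAXINDRAFT_67249 averaged 150 ± 41.3 CPM with phlogopite and 103 ± 28.7 CPM on K-depleted agar (SD, n = 5; log2 fold change 0.57, SE 0.23), and PAXINDRAFT_96838 averaged 153 ± 39.6 CPM with phlogopite and 231 ± 54.3 CPM on K-depleted agar (log2 fold change -0.58, SE 0.28). A p that misses the threshold does not show that the 2 conditions are alike.

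Members with a K-vermiculite position of 0.5 or above were set beside the rest, a division made after the values were seen and given with no test. Among the 47 members at 0.5 or above, 15 were higher and 1 lower with phlogopite than with muscovite, and the median log2 fold change was 0.27. Among the 27 members below 0.5, 3 were higher and 1 lower, with a median of 0.05. Of all tested genes, 1.94% were called higher and 2.21% lower. The division uses the K-vermiculite position, which also chose the members. The first set had a median of 191 CPM on K-depleted agar and the second one of 66.8 CPM, and the part of that difference in level in the counts was not tested.

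The 2 other classes of depletion-induced genes gave other counts in the comparison of phlogopite with muscovite. Of the 34 genes at a K-vermiculite position of 0.75 or above, 12 were higher with phlogopite and 0 lower, with a median log2 fold change of 0.41. Of the 25 genes below 0.25, 0 were higher and 3 lower, with a median of -0.28. The 12 higher genes are 35.3% of their class, beside 1.94% of tested genes called higher. The 3 lower genes are 12.0% of theirs, beside 2.21% called lower. The partly reset members, at 18 and 2 of 74 and a median of 0.21, lay between these classes in their median, and the differences between classes were not tested.

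Some members were neighbours in the reference gene order. By gene order in the reference table, which names no contigs, 3 pairs of members were directly adjacent. Contig ends were taken from falling start coordinates, so genes of different contigs could be joined. A directly adjacent gene of the depletion-induced set was found beside 11 of 74 members, or 14.9%, and beside 1.65% of the 12744 tested genes, a comparison given with no test. In the pair with the most RNA, PAXINDRAFT_173186 averaged 218 CPM with K-vermiculite, 789 CPM on K-depleted agar and 116 CPM on complete agar, and PAXINDRAFT_139583 averaged 9.28, 22.0 and 6.03 CPM in the same order. Their positions were both 0.67, with levels far apart. The gene before the pair, PAXINDRAFT_173184, was at 225, 256 and 281 CPM, not called between K-depleted and complete agar (edgeR adjusted p = 0.771).

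PAXINDRAFT_162006 and PAXINDRAFT_43706 have 0 bases between them by the reference coordinates, so they abut or overlap if they share a contig. Whether counting used strand is not given in the sources used here, so reads from both may not be fully separable. PAXINDRAFT_162006 had 214, 190, 205, 192 and 213 CPM with K-vermiculite, 638, 630, 613, 747 and 573 CPM with phlogopite, 372, 440, 623, 498 and 534 CPM with muscovite, 639, 598, 639, 697 and 589 CPM on K-depleted agar, and 110, 118, 117, 116 and 129 CPM on complete agar. PAXINDRAFT_43706 had 10.2, 9.07, 8.10, 9.69 and 9.32 CPM with K-vermiculite, 27.6, 26.5, 22.4, 31.5 and 27.5 CPM with phlogopite, 16.2, 20.04, 27.8, 20.1 and 23.1 CPM with muscovite, 28.4, 26.9, 25.7, 33.1 and 31.1 CPM on K-depleted agar, and 4.85, 7.28, 6.32, 5.55 and 5.67 CPM on complete agar. In both genes muscovite culture 3 was the highest of its group and culture 1 the lowest. The flanking genes PAXINDRAFT_175648 and PAXINDRAFT_98106 were at 236 and 37.8 CPM on K-depleted agar and 236 and 47.6 CPM on complete agar. PAXINDRAFT_175648 was not called (edgeR adjusted p = 0.0957), and PAXINDRAFT_98106 was lower on K-depleted agar (log2 fold change -0.23, edgeR adjusted p = 0.00238).

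The third pair, PAXINDRAFT_177922 and PAXINDRAFT_64418, is named because there were only 3. PAXINDRAFT_177922 averaged 129 ± 6.16 CPM with K-vermiculite, 217 ± 27.2 CPM with phlogopite, 164 ± 5.49 CPM with muscovite, 194 ± 38.1 CPM on K-depleted agar and 61.0 ± 4.43 CPM on complete agar (SD, n = 5 each). PAXINDRAFT_64418 averaged 53.4 ± 2.36, 94.4 ± 8.75, 70.7 ± 2.92, 87.5 ± 18.8 and 27.6 ± 1.13 CPM in the same order of conditions. Both were higher with phlogopite than with muscovite, by 0.41 (SE 0.10, edgeR adjusted p = 0.0164) and 0.43 (SE 0.10, edgeR adjusted p = 0.0127) on the log2 scale, and in both K-depleted culture 4 was the highest of its group. The gene before this pair, PAXINDRAFT_123140, which is no member, was also higher on K-depleted agar, at 57.9 CPM, against 25.9 CPM on complete agar (log2 fold change 1.26, edgeR adjusted p = 1.63e-12), and was at 50.2 CPM with K-vermiculite. The gene after it, PAXINDRAFT_104481, was at 68.7 and 78.4 CPM on these media (edgeR adjusted p = 0.320).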

How the data were processed

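Counts, whole numbers for each gene, were deposited for TruSeq Stranded mRNA libraries, 1 column per culture, per the labels. The submitters' processing notes name bcl2fastq 2.19, STAR 2.5.2b and HTSeq; options, genome build and handling of multi-mapping reads are not stated in these sources, so near-identical gene copies carry that uncertainty. The 74 members and the tests were chosen with earlier results of these data known. Members and printed CPM use column totals. Genes with low counts were removed (filterByExpr, minimum count 10, minimum total 15), leaving 12744 of 18032. Counts were fitted in R 4.3.3 with edgeR 4.0.16 (TMM scaling, 1 coefficient per group, all 25 libraries, robust quasi-likelihood F-test, Benjamini-Hochberg adjustment over all genes within a contrast, threshold 0.05), after a check on simulated data. The simulated counts held no shift shared by many genes of a culture, so the check does not cover such shifts. SE is the absolute log2 fold change divided by the square root of F. DESeq2 1.42.0 and limma 3.58.1 (voom) were alternatives. Replicate pairs had a chi-square per degree of freedom of 10.7 to 92.7, so none was a repeat deposit. Each culture is called a biological replicate by the labels.

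Named members were the 8 with the highest K-depleted mean, the 8 with the largest fold, those at the edges of the rule, in each contrast of a mineral up to 4 called members per direction with the lowest adjusted p, and up to 4 neighbouring members; others named were chosen after their values were seen. Alternatives changed scaling, filter, test, block, samples fitted and the thresholds of the rule. The reference gene table (assembly Paxillus involutus ATCC 200175 v1.0) matched all 74 IDs, as 18030 locus tags and 2 symbols over the whole table. It gave gene order and span, and no coordinates are printed because the build of the counts is not stated. Protein and promoter sequences were not used here, so the planned sequence features were not run. Counting error is larger, relative to the level, near 10 CPM than in abundant members.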

Additional observations from a re-analysis of the deposited data

Results flagged for a closer look

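In groups of 5 cultures, 145 sets of values were screened for a single culture far from the other 4, measured as its gap to the nearest value over the whole range, with a critical value of 0.71. Chance flags about 1 in 20 sets, and 6 were found. PAXINDRAFT_165289 had 5867 CPM in phlogopite culture 4, against 4681 to 4898 CPM in the others (ratio 0.817). PAXINDRAFT_173207 had 52.2 CPM in K-depleted culture 4, against 68.0 to 72.4 CPM (0.781). PAXINDRAFT_56670 had 161 CPM in muscovite culture 3, against 105 to 119 CPM (0.751). PAXINDRAFT_170306 had 86.1 CPM in complete-agar culture 5, against 62.3 to 68.8 CPM (0.728). PAXINDRAFT_118717 had 289 CPM in muscovite culture 4, against 314 to 320 CPM (0.802). PAXINDRAFT_99821 had 27.7 CPM in K-depleted culture 4, against 14.4 to 17.1 CPM (0.795), and without that culture its log2 fold change of muscovite over K-depleted agar was -0.79.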

How the results depend on the processing

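The number of members depended on the thresholds of the rule: 36 with at least a 4-fold difference between the media and 44 with positions from 0.35 to 0.65. It was 90 with TMM-scaled CPM, which kept all 74, and 66 to 77 under the other 4 settings of scale, pseudocount, average or level. Leaving out 1 culture gave 70 to 78 members, of which at least 69 were shared with the 74. Between phlogopite and muscovite, 20 members were called, 10 with the 2 groups alone, and 10 to 33 when 1 culture was left out. Between muscovite and K-depleted agar, 16 were called, 6 with the 2 groups alone, and 7 to 21 when 1 culture was left out. Between phlogopite and K-depleted agar, 0 were called, 1 with library totals alone, 2 with a filter at a mean of 5 CPM, 2 with limma-voom, 3 with DESeq2, and 0 to 6 when 1 culture was left out. Fewer samples in the fit are part of the construction of the smaller fits; the cause of the other changes was not tested. Of 13 calls between phlogopite and muscovite on genes named by the set criteria, 4 held under every one of the 18 settings and none changed sign. The 4 had been named for their low adjusted p in this contrast. The calls on PAXINDRAFT_177922 and PAXINDRAFT_64418, named afterwards, were not among the 13. The median position ran from 0.0981 to 0.137 with muscovite and from 0.00143 to 0.0345 with phlogopite when 1 culture was left out.

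Replicate numbers recur in all groups, but the labels give them no shared meaning. Deviations of same-numbered cultures from their group means correlated at -0.276 to 0.507 between phlogopite and muscovite, -0.0745 to 0.154 between muscovite and K-depleted agar and 0.0985 to 0.336 between phlogopite and K-depleted agar. The main fit did not take the numbers as a pairing, since the labels give none. These correlations do not exclude one: all 5 were above 0 between phlogopite and K-depleted agar. With a replicate block, 20, 18 and 2 members were called in these contrasts. Of 10 cultures, 4, 1 and 6 correlated best with their own number among the 5 numbers. Whether a number marks something shared by some cultures was not tested.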

Other observations

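PAXINDRAFT_103280, PAXINDRAFT_56670 and PAXINDRAFT_171401 were low in cultures 4 and 5 with K-vermiculite and with phlogopite. The observation was made after the values were seen and was not tested. In each of these genes, in that order, culture 4 was also the lowest with muscovite (12.3, 105 and 699 CPM). Culture 5 was the lowest on K-depleted agar (10.5, 112 and 863 CPM). Muscovite culture 5 (14.6, 119 and 933 CPM) and K-depleted culture 4 (17.5, 319 and 935 CPM) were not the lowest. PAXINDRAFT_103280 had 8.47, 5.66, 10.3, 4.57 and 3.76 CPM with K-vermiculite, 14.5, 15.9, 19.4, 6.51 and 9.15 CPM with phlogopite, 13.9, 17.7, 18.2, 17.5 and 10.5 CPM on K-depleted agar, and 5.19, 3.04, 3.71, 5.75 and 3.95 CPM on complete agar. Its phlogopite culture 4 lay below K-vermiculite cultures 1 and 3. PAXINDRAFT_56670 had 175, 157, 186, 106 and 95.3 CPM with phlogopite, and, as given above, its lowest K-vermiculite values in the same 2 culture numbers. PAXINDRAFT_171401 had 440, 337, 375, 278 and 267 CPM with K-vermiculite and 940, 912, 774, 736 and 647 CPM with phlogopite, against 975, 917, 867, 935 and 863 CPM on K-depleted agar. PAXINDRAFT_162006, by contrast, was highest in phlogopite culture 4, at 747 CPM. The labels do not say that a replicate number marks a shared day or batch.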
